A study of Mus musculus with 36 samples.

Results

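The genes described here form a set of 41 that copy DNA, divide the cell, or switch these programmes on and off. They comprise 13 DNA replication genes, 22 genes of mitosis and its approach, and 6 regulators of entry into S phase and of the programme itself. Each was listed by symbol and matched to its mouse Ensembl identifier in the deposited count tables of 2 tissues, which together hold 17536 genes. All 41 were found in eWAT (epididymal white adipose tissue, an abdominal fat depot next to the testis) among 16690 genes, and 35 were found in liver among 14052 genes. Cdc6, Ccnb1, Bub1, Cenpe, Cenpf and Ndc80 had no row in the liver table and were not analysed there.

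Most cells of adult liver and fat are out of the cycle and keep these genes low. On entry into the cycle, cyclin D and cyclin E kinases release the activating E2F factors from retinoblastoma proteins. E2F factors then switch on replication genes, among them the MCM helicase subunits, the clamp Pcna and the enzymes that make deoxynucleotides. Later in the cycle B-Myb and Foxm1 act with the MuvB core at CHR elements of mitotic genes, where in resting cells the DREAM repressor complex sits. E2f7 and E2f8 are atypical E2F factors that repress E2F targets late in S phase, and in liver they are known for their part in making hepatocytes polyploid.

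Bulk RNA sequencing was done on liver and eWAT of 24-week-old C57BL/6 males, wild-type and of the F0 generation, all raised on chow to 6 weeks of age. Mice labelled LF then ate a low-fat diet for 18 weeks, and those labelled HF ate a high-fat diet for 18 weeks. Mice labelled HFLF ate the high-fat diet for 9 weeks and the low-fat diet for the next 9 weeks. Each diet has 6 libraries per tissue, 36 in all. The labels do not say that the libraries of a group came from separate mice, and the series text gives 4 to 6 per group where 6 libraries are listed. The p-values therefore measure the spread between these libraries, which may be technical, and n counts libraries.

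Libraries held 11662551 to 23295485 counts in liver and 8941798 to 31186477 in eWAT. Levels are given as CPM, a gene's counts per 1000000 counts of its library after scaling between libraries, and differences as log2 fold changes ± their standard error (SE). A gene rose or fell where its adjusted p (Benjamini-Hochberg over all genes of the tissue, edgeR's quasi-likelihood test) was under 0.05. Tissue labels matched defining markers: 6 of 6 hepatocyte genes summed to 68886 to 108652 CPM in liver, where Adipoq, Plin1 and Lep had no row, and 6 of 6 adipocyte genes summed to 7249 to 34519 CPM in eWAT. In liver, LF libraries 1 to 4 stood apart from LF libraries 5 and 6. S100a9, a neutrophil gene, lay at 4.27 to 9.31 CPM in those 4 and at 0.112 and 0.753 in the other two, and Cdkn1a, the p53 target that inhibits cyclin-dependent kinases, was 103 CPM in LF libraries 1 and 2. In eWAT, 4 of 10 listed epididymal epithelium genes had a row, Epcam, Krt8, Krt18 and Crisp1. They summed to 36.1 to 420 CPM in LF libraries 1, 3, 4 and 5. In HFLF library 4 the sum was 103 CPM, and elsewhere in eWAT at most 15.9. The list is not particular to epididymis, since its genes with a liver row summed to 265 to 1266 CPM there. Hepatocyte genes in eWAT summed to 316 to 1022 CPM in LF libraries 3, 4 and 5. Their sum was 228 in HFLF library 4 and at most 146 elsewhere. Some liver results against LF are therefore also given without LF libraries 1 to 4, which leaves 2 LF libraries. A value given only with all libraries may depend on LF libraries 1 to 4 as well.

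Promoter sequences of 7 members are shown because replication and mitosis genes are known to be driven through different elements, and both classes moved with diet. The 7 were picked by name and each holds a marked motif. Members of the same classes without a match, such as Pcna, Rrm1 and Birc5, are not shown. Each is the run of 160 bases just before a RefSeq transcription start (RefSeq table, build GRCm38.p6), 5′ to 3′ on the gene's own strand. Mcm5 lies at chr8:75109349-75109508 on the plus strand, Mcm6 at chr1:128359706-128359865 on the minus strand and Cdk1 at chr10:69352913-69353072 on the minus strand. Mki67 lies at chr7:135716380-135716539 on the minus strand, Top2a at chr11:99024190-99024349 on the minus strand, Cdc20 at chr4:118437344-118437503 on the minus strand and E2f8 at chr7:48881597-48881756 on the minus strand. Capitals mark E2F motifs in Mcm5 and Mcm6, an E2F motif and CHR motifs in Cdk1, and CHR motifs in the other 4.
Mcm5: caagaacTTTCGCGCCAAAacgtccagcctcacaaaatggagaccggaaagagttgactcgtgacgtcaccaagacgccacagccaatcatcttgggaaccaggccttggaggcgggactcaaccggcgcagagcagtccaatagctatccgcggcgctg
Mcm6: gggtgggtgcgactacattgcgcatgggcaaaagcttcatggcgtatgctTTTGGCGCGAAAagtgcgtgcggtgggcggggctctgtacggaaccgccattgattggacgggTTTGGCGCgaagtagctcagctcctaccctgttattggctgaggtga
Cdk1: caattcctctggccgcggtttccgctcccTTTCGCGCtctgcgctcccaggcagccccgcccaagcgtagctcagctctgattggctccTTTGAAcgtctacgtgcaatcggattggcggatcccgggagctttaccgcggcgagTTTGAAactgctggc
Mki67: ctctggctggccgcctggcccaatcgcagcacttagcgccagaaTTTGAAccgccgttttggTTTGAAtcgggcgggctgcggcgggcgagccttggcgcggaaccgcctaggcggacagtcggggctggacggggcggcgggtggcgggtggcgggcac
Top2a: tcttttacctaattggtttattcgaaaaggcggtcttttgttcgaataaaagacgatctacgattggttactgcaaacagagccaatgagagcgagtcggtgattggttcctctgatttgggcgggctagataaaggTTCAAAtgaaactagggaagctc
Cdc20: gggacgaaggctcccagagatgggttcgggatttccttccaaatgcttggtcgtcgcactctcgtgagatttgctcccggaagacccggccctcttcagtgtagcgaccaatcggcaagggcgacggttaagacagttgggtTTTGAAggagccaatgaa
E2f8: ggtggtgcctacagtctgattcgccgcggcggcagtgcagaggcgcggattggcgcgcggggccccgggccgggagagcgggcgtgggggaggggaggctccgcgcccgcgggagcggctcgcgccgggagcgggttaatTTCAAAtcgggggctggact
The E2F motif was searched as TTTCCCGC, TTTCGCGC, TTTGCCGC and TTTGGCGC, the CHR motif as TTTGAA and the CCAAT box by its 5 letters. Both strands were searched and overlapping matches were allowed, so a capital run longer than a motif holds overlapping matches. In windows of 300 bases, from 250 before to 50 after the start, 33 of the 41 members had a window in the promoter table used here. An E2F motif was in 6 of 11 replication windows, in 1 of 18 mitosis windows (Cdk1) and in 1 of 4 regulator windows (E2f7), against 2.26% of all 32851 windows. CHR motifs were in 13 of 18 mitosis windows, in 1 of 11 replication windows (Mcm2) and in 1 of 4 regulator windows (E2f8), against 17.9% of all windows. CCAAT boxes were in 15 of 18 mitosis, 8 of 11 replication and 2 of 4 regulator windows, against 37.4% of all windows. A match is a description of the letters, not a binding site or a cause.

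In liver the set stood higher on the high-fat diet than on the low-fat diet. Between HF and LF, 19 of the 35 measured members rose and none fell. The members that rose were 8 of 12 replication genes (class median 0.64), 9 of 17 mitosis genes (0.94) and 2 of 6 regulators (0.53). These counts and medians include Gins2, Aurkb, Plk1 and Tpx2, which have a liver row only through their HF libraries, so that a rise was favoured in advance. Without them, 7 of 11 replication genes and 6 of 14 mitosis genes rose. Among all liver genes 16.3% rose and 18.5% fell, or 2295 against 2596 genes. With upper-quartile scaling that split was 2952 against 1869, and 23 members rose. The median log2 fold change over the 35 members was 0.79, against 0.00 over all genes, and 32 of the 35 were above 0. At an unadjusted p under 0.05 the same test put 2 members lower in HF, DESeq2 called 1 lower and limma voom none. In bulk samples, fewer cells of a type and less RNA per cell cannot be told apart.

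**Figure D1:**
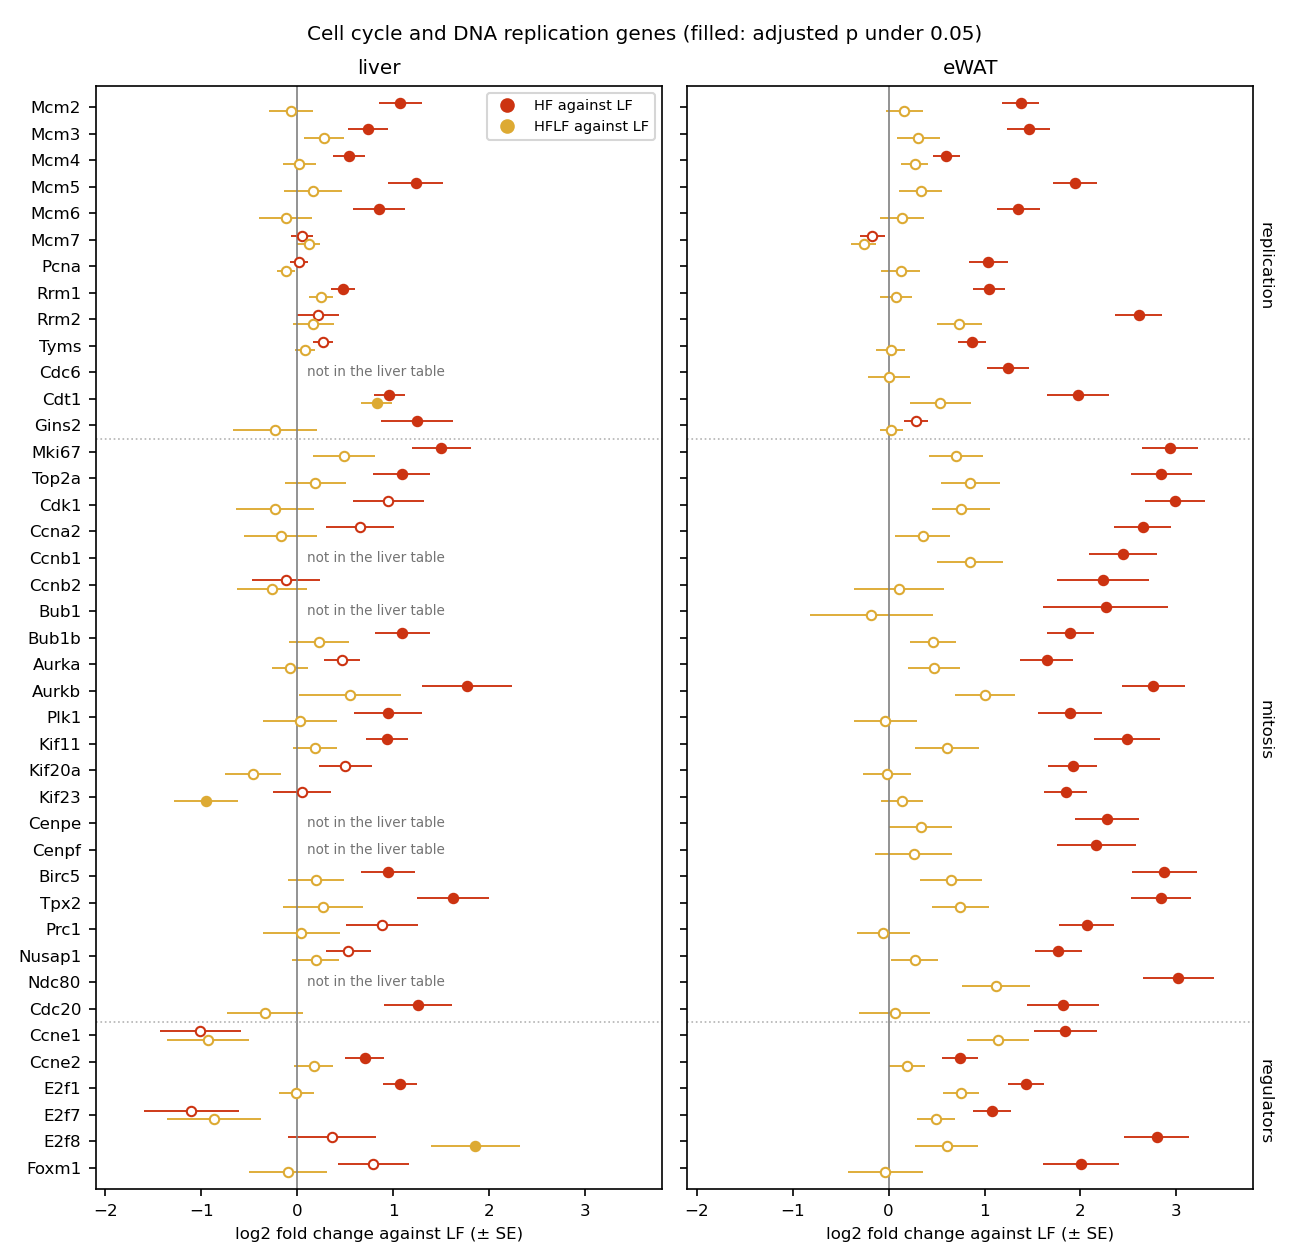
Log2 fold change of each measured member (rows, grouped into replication, mitosis and regulator genes) for HF against LF and for HFLF against LF in liver and eWAT (horizontal axis), with bars of 1 SE and filled points where the adjusted p was under 0.05. HF against LF lies above 0 for 32 of 35 members in liver and is called for 39 of 41 in eWAT, while HFLF against LF is called for 3 members in liver and none in eWAT.

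Among the replication genes, the loader Cdt1 and the MCM helicase subunits led in liver. Cdt1, which brings the helicase to origins, lay at 1.93, 2.42 and 3.74 CPM in LF (lowest, median and highest of 6 libraries) and at 4.37, 5.45 and 6.01 in HF. All HF libraries were above all LF libraries, and Cdt1 rose by 0.96 ± 0.16 (adjusted p = 0.000489). Mcm2 lay at 2.58, 2.88 and 4.36 CPM in LF and at 3.84, 6.09 and 9.33 in HF. Mcm2 rose by 1.08 ± 0.22 (adjusted p = 0.00171), and the highest LF library, number 4, was the only LF library inside the HF range. Mcm5 lay at 1.69, 1.96 and 2.34 CPM in LF and at 2.14, 4.14 and 9.47 in HF. Mcm5 rose by 1.24 ± 0.29 (adjusted p = 0.00367), with the lowest HF library inside the LF range and the highest, number 4, far above the rest.

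The remaining helicase subunits did not all move. Mcm3 rose by 0.74, Mcm4 by 0.54 and Mcm6 by 0.85, while Mcm7 differed by 0.05 ± 0.12 (adjusted p = 0.784). Mcm7 was measured at 13.2 to 20.6 CPM in LF and 14.7 to 18.4 in HF, so the groups overlapped fully. Pcna, the sliding clamp of the replicative polymerases, differed by 0.02 ± 0.09 (adjusted p = 0.91). Of the enzymes that supply deoxynucleotides, the large subunit of ribonucleotide reductase Rrm1 rose by 0.48 ± 0.13 (adjusted p = 0.00796). Its small subunit Rrm2 differed by 0.22 (adjusted p = 0.454) and thymidylate synthase Tyms by 0.27 (adjusted p = 0.0522). Gins2, a subunit of the GINS complex of the active helicase, rose by 1.25 ± 0.37 (adjusted p = 0.0157) from a median of 0.361 to 0.671 CPM. Gins2 shares 2758 of its 4097 exon bases with Gse1 on the opposite strand, and reads of such pairs cannot be told apart because no source used here gives the strand setting of the counting.

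Mitosis genes were scarce in liver, and those that passed rose by 0.94 or more. Mki67, the marker of cells in cycle, lay at 0.51, 0.759 and 1.38 CPM in LF and at 1.46, 1.83 and 4 in HF. The groups did not overlap, and Mki67 rose by 1.502 ± 0.31 (adjusted p = 0.00164). Kif11, the motor that pushes spindle poles apart, lay at 0.567, 0.787 and 0.874 CPM in LF and at 0.894, 1.49 and 1.8 in HF. These groups did not overlap either, and Kif11 rose by 0.94 ± 0.21 (adjusted p = 0.00337). Tpx2, which nucleates spindle microtubules and activates Aurora A, lay at 0.154, 0.33 and 0.644 CPM in LF and at 0.536, 0.842 and 2.07 in HF. Tpx2 rose by 1.62 ± 0.37 (adjusted p = 0.00338) with some overlap. The checkpoint kinase Bub1b lay at 0.223, 0.497 and 0.736 CPM in LF and at 0.756, 1.06 and 1.75 in HF. It rose by 1.10 ± 0.29 (adjusted p = 0.00775), again without overlap.

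Top2a, which untangles replicated chromosomes, rose by 1.09 ± 0.30 (adjusted p = 0.01) from a median of 0.888 to 1.84 CPM. Aurkb, Plk1, Birc5 and Cdc20 rose as well: Aurkb and Birc5 belong to the chromosomal passenger complex, Plk1 is a mitotic kinase and Cdc20 activates the anaphase-promoting complex. The log2 fold changes of these 4 lay between 0.94, for Birc5 and Plk1, and 1.77, for Aurkb. Cdk1, the kinase of mitotic entry, differed by 0.95 ± 0.37 (adjusted p = 0.0535), its partner cyclin A2 (Ccna2) by 0.66 (adjusted p = 0.155) and cyclin B2 (Ccnb2) by -0.12 (adjusted p = 0.823). Prc1, Nusap1, Aurka, Kif20a and Kif23 did not pass either.

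The regulators split in liver. E2f1, an activating E2F, lay at 3.12, 3.65 and 4.13 CPM in LF and at 5.14, 7.55 and 10 in HF. All HF libraries were above all LF libraries, and E2f1 rose by 1.07 ± 0.18 (adjusted p = 0.000442), the smallest p of the 35. Cyclin E2 (Ccne2) lay at 0.878, 1.11 and 1.38 CPM in LF and at 1.36, 1.83 and 2.38 in HF, and rose by 0.70 ± 0.20 (adjusted p = 0.012). Cyclin E1 (Ccne1) lay at 0.538, 3.69 and 5.38 CPM in LF and at 0.907, 1.53 and 2.57 in HF, a difference of -1.01 ± 0.43 (adjusted p = 0.0726). LF libraries 1 to 4 held 2.93 to 5.38 CPM of Ccne1 and LF libraries 5 and 6 held 0.538 and 0.892, and without the first 4 the difference was 1.18. The repressor E2f7 differed by -1.10 ± 0.49 (adjusted p = 0.0889) and E2f8 by 0.36 ± 0.46 (adjusted p = 0.57), and Foxm1 differed by 0.79 ± 0.37 (adjusted p = 0.104). Without LF libraries 1 to 4 the signs turned, to 0.24 for E2f7 and -0.33 for E2f8. Of 2 reference genes outside the set, cyclin D1 (Ccnd1) differed by -0.14 ± 0.38 (adjusted p = 0.801) and Cdkn1a by -1.60 ± 0.70 (adjusted p = 0.0842). Their signs turned as well without LF libraries 1 to 4, to 0.84 for Ccnd1 and 0.93 for Cdkn1a.

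Cdt1, Mki67, Bub1b, Kif11 and E2f1 were the 5 members whose HF libraries all lay above all LF libraries, as did 5.06% of all liver genes. No member had HF wholly below LF, as had 5.89% of all genes. HF library 4 was the highest HF library for 18 of the 35 members and HF library 1 for 7. Without LF libraries 1 to 4, 2 of the 35 members rose, Cdt1 (0.84 ± 0.21, adjusted p = 0.0493) and Cdk1 (2.28 ± 0.52, adjusted p = 0.0385), the latter not called with all libraries, while 158 genes of 14052 rose in that smaller comparison. The members' median there was 0.84, Mki67 differed by 1.86, Mcm2 by 1.24 and E2f1 by 0.99. Gins2, Aurkb, Plk1 and Tpx2 reached the level needed for a row in the table only through their HF libraries, and of the other 31 members 15 rose.

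Markers of other cell types were mixed in liver between HF and LF. The 9 Kupffer cell markers differed by -0.19 to 0.68 with adjusted p of 0.107 or more, and had summed levels of 243 to 343 CPM in LF and 227 to 385 in HF. Of 6 B and plasma cell markers 4 rose and 1 fell, of 4 erythroid markers 1 rose, of 6 endothelial markers 1 rose and of 6 stellate cell and fibroblast markers 1 rose. The T and NK cell markers Cd3e and Cd4 differed by 0.16 and -0.41 (adjusted p = 0.77 and 0.356). Of 5 cholangiocyte markers 1 fell, the neutrophil gene S100a9 fell, 3 of 3 measured adipocyte markers rose, and of 6 hepatocyte markers 2 fell. Within HF, adipocyte sums were largest in libraries 1 and 4 (204 and 191 CPM), as were stellate cell and fibroblast sums (488 and 395). Kupffer cell sums were largest in HF library 5 (385) and hepatocyte sums in HF library 6 (85793). The part of these cells in the result was not tested.

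**Figure D2:**
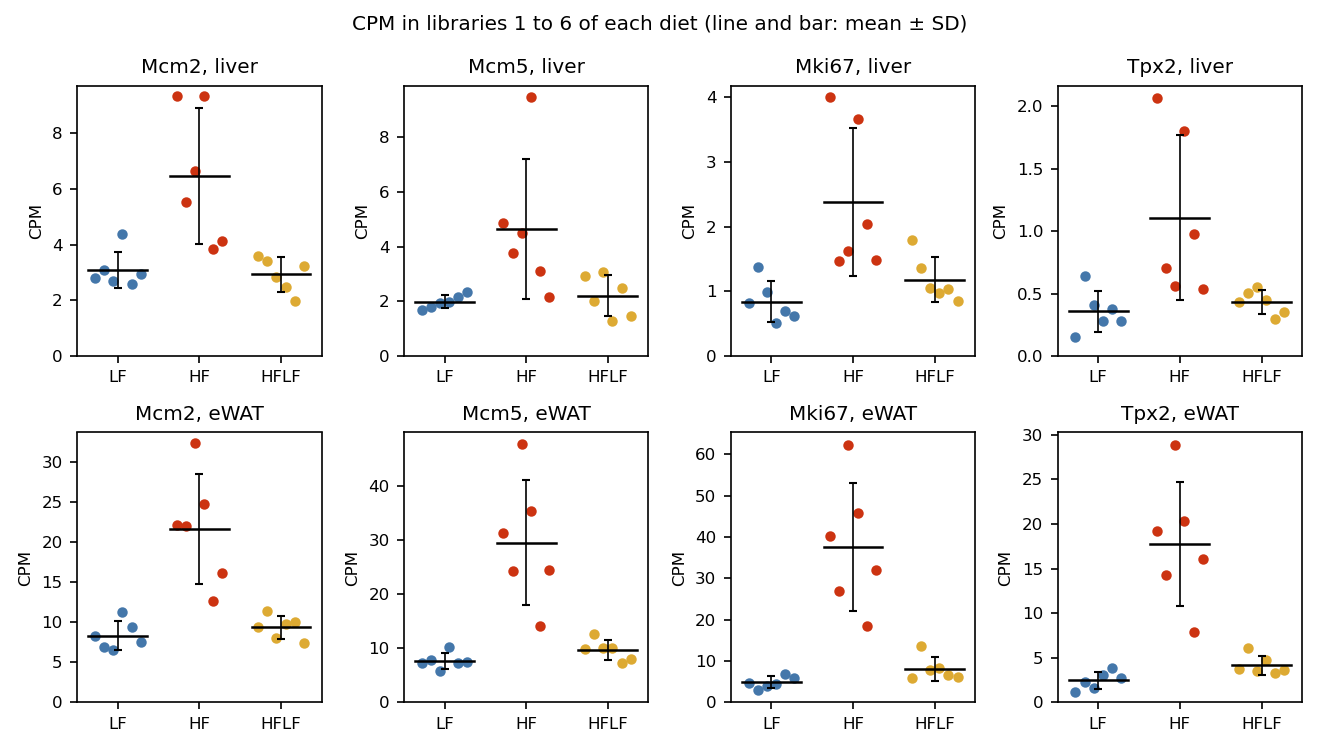
Level in CPM (vertical axes, from 0) of Mcm2, Mcm5, Mki67 and Tpx2 in every library of liver and eWAT by diet, each point a library, with the mean and a bar of 1 SD of the 6 libraries. In eWAT the 6 HF libraries of Mki67 lie between 18.5 and 62.3 CPM, above all LF and HFLF libraries, and in liver they lie between 1.46 and 4 CPM.

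After the switch to the low-fat diet, few members differed in liver from LF, and all members that differed from HF were below it. Between HFLF and LF, 2 members rose (Cdt1 and E2f8) and 1 fell (Kif23), where 10.2% of all genes rose and 12.4% fell. The members' median was 0.04, against -0.0012 over all genes. Between HFLF and HF, 8 members fell and none rose, where 3.05% of all genes fell and 2.18% rose. Of the 31 members that did not owe their row to HF libraries, 6 fell. The 35 measured median was -0.83, against -0.0023 over all genes. At an unadjusted p under 0.05 the last comparison had 24 members lower and 1 higher, and DESeq2 and limma voom each called 1 higher. The HFLF comparisons share their LF or HF libraries with the comparison above.

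The 8 that fell against HF were Mcm2, Mcm5, Mcm6, Gins2, Kif11, Tpx2, Cdc20 and E2f1. E2f1 lay at 2.5, 3.68 and 4.73 CPM in HFLF, below all HF libraries, and fell by 1.08 ± 0.18 on the log2 scale (adjusted p = 0.00533), while against LF it differed by -0.01 (adjusted p = 0.981). Mcm2 lay at 1.98, 3.04 and 3.59 CPM in HFLF, also below all HF libraries, and fell by 1.14 ± 0.22 (adjusted p = 0.0101). Cdc20 lay at 0.352, 0.503 and 0.929 CPM in HFLF against 0.957, 1.19 and 3.56 in HF, without overlap, and fell by 1.60 ± 0.37 (adjusted p = 0.0233). Mcm2, Cdk1, Cdc20 and E2f1 were the 4 members with HFLF wholly below HF, as were 2.3% of all genes, and none had HFLF wholly above HF, as had 1.56%. Gins2 fell by 1.48 ± 0.40 (adjusted p = 0.0384) and Tpx2 by 1.36 ± 0.37 (adjusted p = 0.0431), the members of the 8 with a row only through HF. Mcm5 fell by 1.07 ± 0.29 (adjusted p = 0.0393), Mcm6 by 0.97 ± 0.27 (adjusted p = 0.0461) and Kif11 by 0.75 ± 0.22 (adjusted p = 0.0499). Members that did not pass included Mki67 at -1.01 ± 0.30 (adjusted p = 0.0563), Top2a at -0.90 (adjusted p = 0.0844), Ccne2 at -0.53 (adjusted p = 0.123) and Foxm1 at -0.89 (adjusted p = 0.177). Outside the set, Cdkn1a differed by -0.96 (adjusted p = 0.471) and Ccnd1 by -0.19 (adjusted p = 0.825). When each of the 18 libraries was left out in turn, E2f1 and Mcm2 kept their calls, Kif11 lost its call in 15 fits, Mcm6 in 13, Tpx2 in 10, Gins2 in 9, Mcm5 in 8 and Cdc20 in 3.

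Cdt1 and E2f8 were the members above LF in HFLF liver. Cdt1 lay at 3.97, 4.84 and 6.01 CPM in HFLF, above all LF libraries, and rose against LF by 0.83 ± 0.16 (adjusted p = 0.00255), while its difference from HF was -0.13 (adjusted p = 0.69). Cdt1 was the only member with HFLF wholly above LF, as were 2.78% of all genes, while none was wholly below it, as were 3.37%. Without LF libraries 1 to 4 its difference was 0.71 (adjusted p = 0.146). E2f8 lay at 4.07, 6.36 and 24.1 CPM in LF, 6.77, 11.3 and 17.7 in HF and 10.2, 30.5 and 66 in HFLF. It rose in HFLF against LF by 1.86 ± 0.46 (adjusted p = 0.0102), and LF library 5, at 24.1 CPM, overlapped with HFLF. Against HF its difference was 1.499 ± 0.45 (adjusted p = 0.0632).

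Without LF libraries 1 to 4 the E2f8 difference between HFLF and LF was 1.17 (adjusted p = 0.43), and without LF libraries 1 and 2 it was 1.62 (adjusted p = 0.0543). Gm2788, which shares 610 of the 5443 exon bases of E2f8 on the opposite strand, lay at 20.1 to 56.2 CPM in LF and 32 to 79.6 in HFLF, a difference of 0.75 ± 0.28 (adjusted p = 0.0618). Kif23, the central spindle motor, lay at 0.223, 1.04 and 1.17 CPM in LF and 0.352, 0.493 and 0.526 in HFLF. It fell by 0.95 ± 0.34 on the log2 scale (adjusted p = 0.0483) and lost its call in 13 of the 18 fits with a library left out. Cdkn1a fell in HFLF against LF by 2.56 ± 0.74 on the log2 scale (adjusted p = 0.0212), and without LF libraries 1 and 2 its difference was -0.64 (adjusted p = 0.456).

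The other members were not called between HFLF and LF in liver, and their differences had both signs. Among replication genes Rrm1 differed by 0.245 (adjusted p = 0.171), Mcm3 by 0.28 (adjusted p = 0.354), Pcna by -0.12 (adjusted p = 0.394) and Mcm2 by -0.07 (adjusted p = 0.86). Among mitosis genes Kif20a, a motor of cytokinesis, differed by -0.46 (adjusted p = 0.272), Mki67 by 0.49 (adjusted p = 0.288), Aurkb by 0.55 (adjusted p = 0.48) and Top2a by 0.19 (adjusted p = 0.706). Ccne1 differed by -0.93 (adjusted p = 0.123), E2f7 by -0.86 (adjusted p = 0.213), Ccne2 by 0.17 (adjusted p = 0.583) and Ccnd1, outside the set, by -0.32 (adjusted p = 0.569).

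**Figure D3:**
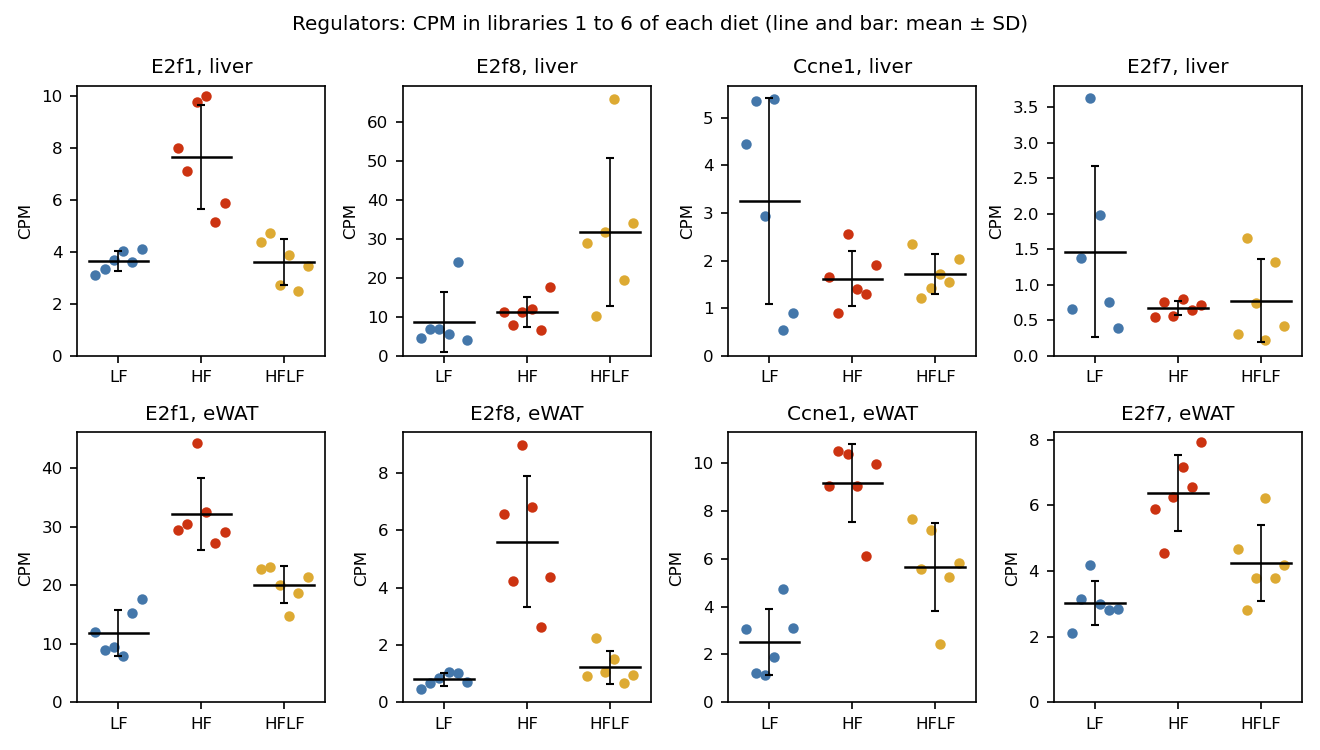
Level in CPM (vertical axes, from 0) of the regulators E2f1, E2f8, Ccne1 and E2f7 by diet in liver and eWAT, with a point for each library and the group's mean and SD. In liver E2f8 reaches 10.2 to 66 CPM in HFLF against 4.07 to 24.1 in LF, and in eWAT it is 2.64 to 8.98 CPM in HF against 0.47 to 1.06 in LF.

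Other genes of the same pathways, taken from longer lists, were counted in the same tissue, where 16.3% of all genes rose and 18.5% fell between HF and LF. A gene low outside HF can have a liver row only through its HF libraries, which favours a rise. Such genes were not set aside in these lists, so the counts and medians may include them. Of 35 further replication genes in liver, 21 rose in HF against LF, with a median of 0.38. Among them Gmnn, the geminin that restrains Cdt1, rose by 1.05 ± 0.15, Uhrf1, which helps copy DNA methylation, by 2.05 ± 0.37, Chaf1a of the chromatin assembly factor by 1.78 ± 0.34 and Dut by 0.65 ± 0.10. Of 30 further mitosis genes 15 rose with a median of 0.57, including Ncapd2 of condensin (0.74 ± 0.12) and Ube2c, a ubiquitin-conjugating enzyme of the anaphase-promoting complex (2.02 ± 0.39). Of 22 genes of the G1, E2F and DREAM group 4 rose and 4 fell, among them E2f4 (-0.47 ± 0.07) and Rbbp4 (-0.52 ± 0.09), counts near the shares over all genes. Of 12 kinase inhibitors and p53 targets 3 rose and 3 fell, and of 9 checkpoint genes 4 rose and 1 fell, with Chek2 at 1.25 ± 0.18 and Wee1 at 1.85 ± 0.32.

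Against LF, HFLF liver had 4 of 35 further replication genes higher, Gmnn among them at 0.91 ± 0.16, and 3 of 30 further mitosis genes higher with 2 lower, where 10.2% of all genes were higher and 12.4% lower. The shares higher were near that over all genes. Against HF, 4 of 35 further replication genes fell, Uhrf1 by 1.97 ± 0.38 on the log2 scale (adjusted p = 0.00908), and 2 of 30 mitosis genes fell, Ube2c by 1.98 ± 0.41 (adjusted p = 0.0128) and Racgap1 by 1.40, where 3.05% of all genes fell. Genes with a row only through HF libraries, for which a fall was favoured, were not set aside here either.

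In eWAT nearly the whole set rose on the high-fat diet. Between HF and LF, 39 of 41 members rose and none fell at either the adjusted threshold or an unadjusted p under 0.05 in edgeR's test, where 20.6% of all genes rose and 20.2% fell. The median log2 fold change was 1.92 against -0.02 over all genes. All 22 mitosis genes rose with a median of 2.27, 11 of 13 replication genes with a median of 1.25, and 6 of 6 regulators with a median of 1.64. In 31 members the HF libraries lay wholly above the LF libraries, as they did in 9.44% of all genes, and in none did they lie wholly below, as in 6.39%. DESeq2 and limma voom also called no member lower.

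Among the replication genes Rrm2 changed most. Rrm2 lay at 1.76, 2.31 and 4.1 CPM in LF and 8.58, 15 and 24.3 in HF, and rose by 2.61 ± 0.25 (adjusted p = 1.81e-05). The lowest HF library was above the highest LF library. Mcm5 lay at 5.81, 7.36 and 10.3 CPM in LF and 14.2, 27.9 and 47.8 in HF, and rose by 1.95 ± 0.23 (adjusted p = 3.13e-05). Mcm2 lay at 6.47, 7.91 and 11.2 CPM in LF and 12.6, 22 and 32.4 in HF, and rose by 1.38 ± 0.20 (adjusted p = 8.35e-05). Neither gene overlapped between the groups. Cdt1 rose by 1.97 ± 0.32 from a median of 4.34 to 16.1 CPM, and Cdc6, which loads the helicase with it, by 1.25 ± 0.22 from 2.13 to 4.42.

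Mcm3 rose by 1.46 ± 0.22, Mcm6 by 1.35 and Mcm4 by 0.60 ± 0.14, Pcna by 1.04 ± 0.20, Rrm1 by 1.04 ± 0.17 and Tyms by 0.87 ± 0.15. The replication genes that did not pass were Mcm7, at -0.17 ± 0.13 (adjusted p = 0.308), and Gins2, at 0.28 ± 0.12 (adjusted p = 0.0761). Mcm7 lay at 31.1 to 51.6 CPM in LF and 29.2 to 44.7 in HF. It shares 64 exon bases with Cops6 and 321 of its 4426 with Ap4m1, and Gins2 shares bases with Gse1, which itself rose in eWAT by 0.70 ± 0.13 (adjusted p = 0.000606).

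Mitosis genes rose further. Mki67 lay at 3.06, 4.66 and 6.93 CPM in LF and 18.5, 36.1 and 62.3 in HF, and rose by 2.93 ± 0.29 (adjusted p = 2.26e-05). Cdk1 lay at 1.05, 1.5 and 2.74 CPM in LF and 5.99, 12.6 and 22.3 in HF, and rose by 2.99 ± 0.31 (adjusted p = 2.26e-05). Tpx2 lay at 1.17, 2.5 and 3.84 CPM in LF and 7.92, 17.6 and 28.9 in HF, and rose by 2.84 ± 0.31 (adjusted p = 2.54e-05). None of these 3 overlapped between the groups. Ndc80, the kinetochore protein that grips microtubules, rose by 3.02 ± 0.37 (adjusted p = 3.86e-05) from a median of 0.759 to 5.97 CPM. Top2a rose by 2.84 ± 0.32, Birc5 by 2.88 ± 0.34, Aurkb by 2.76 ± 0.33 and Ccna2 by 2.65 ± 0.30. The smallest increases of the class were those of Aurka (1.65) and Nusap1 (1.77). Bub1 lay at 0.0952 to 3.73 CPM in LF and rose by 2.26 ± 0.65 (adjusted p = 0.0106), with overlap between the groups. Its highest LF library was number 4. That library also had the largest sum of epididymal epithelium genes (420 CPM) and the highest LF mean of log2(CPM + 0.1) over the mitosis genes (1.81). A link between these was not tested.

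The 6 regulators all rose in eWAT HF. E2f1 lay at 7.85, 10.8 and 17.6 CPM in LF and 27.3, 29.9 and 44.2 in HF, and rose by 1.43 ± 0.19 (adjusted p = 5.54e-05) without overlap. E2f8 lay at 0.47, 0.783 and 1.06 CPM in LF and 2.64, 5.48 and 8.98 in HF, and rose by 2.80 ± 0.34 (adjusted p = 3.65e-05) without overlap. Ccne1 lay at 1.14, 2.47 and 4.72 CPM in LF and 6.09, 9.48 and 10.5 in HF, and rose by 1.84 ± 0.33 (adjusted p = 0.000391). E2f7 rose by 1.08 ± 0.20 (adjusted p = 0.000475), Foxm1 by 2.01 ± 0.40 (adjusted p = 0.000894) and Ccne2 by 0.74 (adjusted p = 0.00442). Cdkn1a rose by 0.97 ± 0.29 (adjusted p = 0.0143), and Ccnd1 differed by 0.61 ± 0.37 (adjusted p = 0.197).

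HF libraries differed among themselves in the same way for most members. HF library 3 was the highest of the 6 for 34 of 41 members, and HF library 5 was the lowest for 39. Markers of fat macrophages moved with the set, 8 of 9 being higher in HF with a median of 3.14. The 8 markers other than Lpl, which adipocytes also express, summed to 376 to 522 CPM in LF, to 856 to 8598 in HF and to 563 to 2092 in HFLF. HF library 3 had the largest sum, 8598, and HF library 5 the smallest of its group, 856. This order was not particular to macrophages. Stellate cell and fibroblast markers also summed highest in HF library 3 (11628 CPM) and lowest in HF library 5 (3280). Adipocyte and endothelial sums were the reverse, lowest in HF library 3 (7249 and 611) and highest in HF library 5 (18923 and 1380). HFLF library 2, at 2092, had a larger macrophage sum than HF libraries 5 and 6 (856 and 1307). The mean log2 level over the mitosis genes in HFLF library 2, 2.13, was below theirs (2.56 and 3.26). Within HFLF, library 2 had both the largest macrophage sum and the highest mitosis mean (range 1.39 to 2.13). That library also had the largest stellate cell and fibroblast sum of HFLF (3091 CPM) and the smallest adipocyte sum (15571). Adipocyte markers summed to 18355 to 34519 CPM in LF and 7249 to 18923 in HF, with 4 of 6 lower and 1 higher. Of the other lists, 1 of 9 T and NK cell markers rose, and 1 of 7 B and plasma cell markers fell while the median of that list was 0.96. Of 6 endothelial markers 1 rose, of 6 adipose progenitor markers 1 rose, and of 6 stellate cell and fibroblast markers 3 rose and 2 fell. Of 3 measured erythroid markers 3 fell (median -0.94), of 3 neutrophil markers 1 rose and 2 fell, and of 4 epididymal epithelium markers 3 fell (median -4.65). Of 6 hepatocyte markers 2 fell, of 5 cholangiocyte markers 1 rose and 3 fell, and of 8 Kupffer cell markers, which overlap with the fat macrophage list, 6 rose. The part of macrophages or of a change in cell makeup in the result was not tested.

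**Figure D4:**
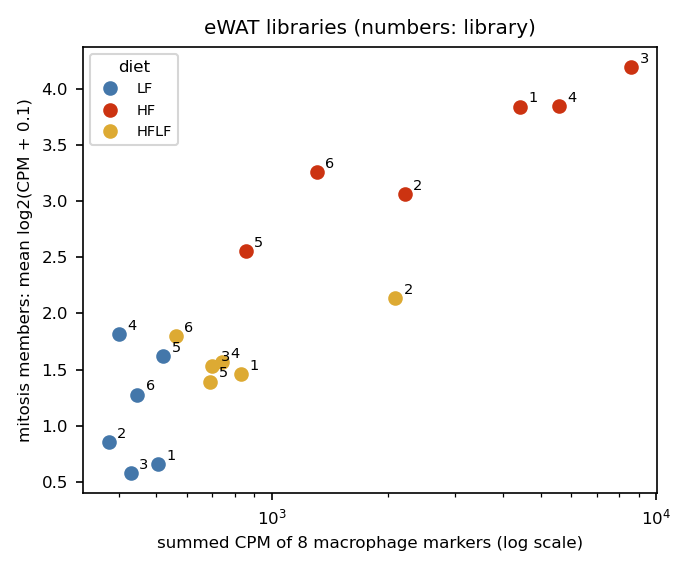
Mean log2(CPM + 0.1) over the 22 mitosis genes (vertical axis) against the summed CPM of 8 fat macrophage markers (horizontal log axis) in the 18 eWAT libraries, numbered within each diet. HFLF library 2 has a sum of 2092 CPM, inside the HF range of 856 to 8598, and a mitosis mean of 2.13, below all HF libraries. Both values are the highest of the HFLF libraries, and a link between them was not tested.

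After the switch, the set in eWAT was below HF and not called different from LF. Between HFLF and HF, 37 of 41 members fell and none rose, where 14.7% of all genes fell and 10.7% rose, with a median of -1.71 against -0.0012 over all genes. The 37 were 10 of 13 replication genes (median -1.15), 22 of 22 mitosis genes (median -1.93) and 5 of 6 regulators (median -0.69). In 27 members HFLF lay wholly below HF, as it did in 4.67% of all genes, and in none wholly above, as in 4.77%. No member was higher at an unadjusted p under 0.05 in edgeR's test, and neither DESeq2 nor limma voom called a member higher.

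Mki67 lay at 5.81, 7.27 and 13.6 CPM in HFLF, below all HF libraries, and fell by 2.23 ± 0.28 on the log2 scale (adjusted p = 0.000358). Ccna2, at 2.26, 3.06 and 4.5 CPM in HFLF, fell by 2.29 ± 0.29 (adjusted p = 0.000358). Kif23, at 2.59, 3.67 and 4.98 CPM in HFLF against 7.11, 12.3 and 16.7 in HF, fell by 1.71 ± 0.22 (adjusted p = 0.000367). HFLF and HF did not overlap for these 3 genes. Rrm2 fell by 1.87 ± 0.24 (adjusted p = 0.000358), Mcm5 by 1.61 ± 0.23 (adjusted p = 0.000623), Mcm2 by 1.21 ± 0.19 (adjusted p = 0.00102) and Rrm1 by 0.97 ± 0.17 (adjusted p = 0.00138). Kif20a fell by 1.93 ± 0.25 (adjusted p = 0.000386) and Top2a by 1.99 ± 0.31 (adjusted p = 0.000837). Among the regulators E2f8 fell by 2.19 ± 0.33 (adjusted p = 0.0008), Foxm1 by 2.04 ± 0.40 (adjusted p = 0.00255), E2f1 by 0.68 ± 0.18 (adjusted p = 0.013) and E2f7 by 0.59 ± 0.20 (adjusted p = 0.0358). E2f7 lost its call in 7 of the 18 fits with a library left out.

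Mcm4, Mcm7, Gins2 and Ccne1 were not called between HFLF and HF, Ccne1 at -0.70 ± 0.32 (adjusted p = 0.116). Cdkn1a fell by 1.02 ± 0.29 (adjusted p = 0.0177) and Ccnd1 by 1.11 ± 0.37 (adjusted p = 0.0367). Of the 9 fat macrophage markers 8 also fell between HFLF and HF, with a median of -2.15.

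Between HFLF and LF no member passed in eWAT, where 0.342% of all genes rose and 0.222% fell. By edgeR's unadjusted p under 0.05, 11 members were higher and none lower, and DESeq2 and limma voom each called 2 higher. The median was 0.31 against -0.02 over all genes, with 35 of 41 members above 0, and no member had HFLF wholly above or wholly below LF, as had 1.9% and 0.665% of all genes. E2f1 lay at 14.7, 20.7 and 23.2 CPM in HFLF, a difference of 0.75 ± 0.19 (adjusted p = 0.0691), and Ccne1 at 2.44, 5.68 and 7.63, a difference of 1.14 ± 0.32 (adjusted p = 0.0969). Aurkb differed by 1.01 ± 0.32 (adjusted p = 0.125), Ndc80 by 1.12 ± 0.36 (adjusted p = 0.127), Rrm2 by 0.74 ± 0.24 (adjusted p = 0.131) and Top2a by 0.85 ± 0.31 (adjusted p = 0.166). Missing the threshold does not show that these levels were equal. Mki67 differed by 0.70 ± 0.28 (adjusted p = 0.206), Cdk1 by 0.75 (adjusted p = 0.205), E2f7 by 0.49 (adjusted p = 0.206), E2f8 by 0.61 (adjusted p = 0.33) and Cdt1 by 0.54 (adjusted p = 0.369). Among the helicase subunits Mcm7 differed by -0.26 ± 0.13 (adjusted p = 0.287), Mcm4 by 0.27 (adjusted p = 0.31) and Mcm2 by 0.17 ± 0.19 (adjusted p = 0.681). The genes outside the set were at -0.498 for Ccnd1 (adjusted p = 0.479) and -0.05 for Cdkn1a (adjusted p = 0.942). Of the 9 fat macrophage markers 2 were higher in HFLF than in LF, with a median of 0.96.

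Of the longer pathway lists in eWAT, the mitosis list had the largest share called between HF and LF, where 20.6% of all genes rose and 20.2% fell. Any genes of these lists with a row only through HF libraries were not set aside. Between HF and LF, 50 of 53 further mitosis genes rose and 1 fell (Pttg1, securin), with a median of 1.98, led by the kinetochore gene Spc25 at 3.21 ± 0.25 (adjusted p = 4.2e-06). Of 40 further replication genes 26 rose, with a median of 0.67, among them the checkpoint mediator Clspn (3.06 ± 0.38), thymidine kinase Tk1 (2.15 ± 0.28) and Uhrf1 (2.15 ± 0.29). Of 22 G1, E2F and DREAM genes 7 rose and 4 fell. Of 14 kinase inhibitors and p53 targets 8 rose and 2 fell, with Plk2 at 1.48 and Cdkn1c at -0.66, and 6 of 10 checkpoint genes rose, with Skp2 at 1.36.

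Between HFLF and HF, where 14.7% of all eWAT genes fell and 10.7% rose, 46 of the 53 mitosis genes fell and 1 rose (Pttg1). Of the 40 replication genes 24 fell. Spc25 was at -2.11 ± 0.24 (adjusted p = 0.000239) and Clspn at -2.20. Mybl2, the B-Myb of the mitotic programme, fell by 1.40 on the log2 scale, and 7 of 10 checkpoint genes fell. Between HFLF and LF, where 0.342% of all genes rose, Spc25 was the only one of 53 mitosis genes to rise, by 1.09 ± 0.24 (adjusted p = 0.045).

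Replication and mitosis genes were set against each other as class means of log2(CPM + 0.1) in each library, a description without a test. In eWAT the replication mean was 3.22 ± 0.12 in LF, 4.36 ± 0.46 in HF and 3.42 ± 0.18 in HFLF (SD, n = 6). The mitosis mean was 1.13 ± 0.52 in LF, 3.46 ± 0.61 in HF and 1.65 ± 0.28 in HFLF. Mitosis minus replication was therefore -2.09 ± 0.43 in LF, -0.90 ± 0.20 in HF and -1.77 ± 0.19 in HFLF. All HF libraries, at -1.14 to -0.66, were above all LF (-2.56 to -1.62) and HFLF libraries (-1.93 to -1.46).

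In liver the replication mean was 2.16 ± 0.13 in LF, 2.73 ± 0.32 in HF and 2.27 ± 0.15 in HFLF, and the mitosis mean was -0.33 ± 0.25, 0.45 ± 0.41 and -0.31 ± 0.14. The replication mean includes Gins2 and the mitosis mean Aurkb, Plk1 and Tpx2. These have a liver row only through their HF libraries, so a higher HF mean was favoured in advance. The difference between the classes was -2.48 ± 0.32 in LF, -2.28 ± 0.31 in HF and -2.58 ± 0.15 in HFLF, and these ranges overlapped. The regulator mean was 0.99 ± 0.37, 1.25 ± 0.24 and 1.10 ± 0.08 in liver and 1.65 ± 0.31, 3.31 ± 0.32 and 2.22 ± 0.12 in eWAT, in the order LF, HF and HFLF. Liver mitosis genes averaged 5 to 54.2 counts per library in LF.

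**Figure D5:**
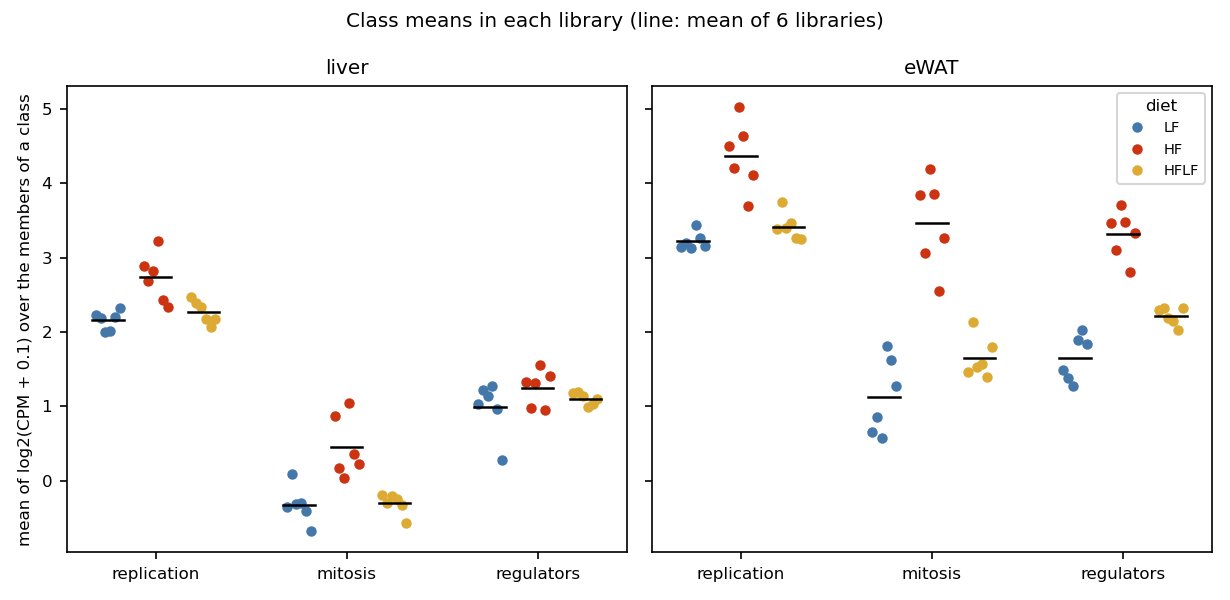
Mean log2(CPM + 0.1) over the measured replication, mitosis and regulator genes in each library (points) of liver and eWAT by diet, with a line at the mean of the 6 libraries. The eWAT mitosis mean is 1.13 in LF, 3.46 in HF and 1.65 in HFLF, and the liver mitosis mean is -0.33, 0.45 and -0.31. The liver means include Gins2, Aurkb, Plk1 and Tpx2, which have a liver row only through their HF libraries.

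Per kilobase of exon, the scale on which genes can be compared, the median replication gene stood above the median mitosis gene in every group. Medians in liver were 0.877 CPM per kb for replication and 0.154 for mitosis in LF, and 1.48 and 0.289 in HF. They include Gins2, Aurkb, Plk1 and Tpx2, which have a liver row only through their HF libraries. In eWAT they were 1.92 and 0.504 in LF, 5.70 and 2.93 in HF, and 2.13 and 0.732 in HFLF. Pcna had the highest level per kb of the set, with 9.00 in liver LF, 15.7 in eWAT LF and 32.2 in eWAT HF.

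The difference between tissues was tested itself for the 35 members measured in both, as the eWAT log2 fold change minus the liver one (edgeR's quasi-likelihood interaction test, adjusted over 13206 genes). For HF against LF the difference was above 0 for 19 members and below 0 for 1 (Gins2, -1.02, adjusted p = 0.0215), where 21% of all genes were above and 24.6% below. Gins2 has a liver row only through its HF libraries, which favoured a larger liver change, and shares 2758 of its 4097 exon bases with Gse1. The 19 were 5 replication genes, 11 mitosis genes and 3 regulators. The median difference was 1.11, against -0.04 over all genes. It was 0.53 over replication, 1.35 over mitosis and 1.64 over regulator genes.

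Rrm2 had a tissue difference of 2.32 ± 0.33 (adjusted p = 3.72e-06), with 2.61 in eWAT and 0.22 in liver. Ccne1 had 2.77 ± 0.54 (adjusted p = 0.000153), Kif23 1.74 ± 0.37 (adjusted p = 0.000379) and Pcna 0.97 ± 0.23 (adjusted p = 0.00103). Without liver LF libraries 1 to 4 the Ccne1 difference was 0.61 (adjusted p = 0.439) and that of Rrm2 was 2.44, and 7 members passed in all. Mcm2 differed by 0.24 between tissues (adjusted p = 0.546) and E2f1 by 0.31 (adjusted p = 0.346). Both genes are among the 18 members that rose in HF in each tissue.

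For HFLF against HF, the difference was below 0 for 11 members and above 0 for 1 (Gins2, 1.25), where 9.18% of all genes were below 0 and 8.78% above. The limits given for Gins2 in HF against LF hold here too. E2f8 had a difference of -3.69 ± 0.59 (adjusted p = 0.000196), with -2.19 in eWAT and 1.499 in liver. Rrm2 followed with -1.80 ± 0.33 (adjusted p = 0.000775), Cdt1 with -1.30 ± 0.36 (adjusted p = 0.0135) and Tyms with -0.64 ± 0.17 (adjusted p = 0.0115). The median over the 35 members was -0.76, against -0.0063 over all genes. For HFLF against LF Ccne1 alone passed, at 1.998 ± 0.54 (adjusted p = 0.021), where 3.6% of all genes were above 0 and 4.96% below. Without liver LF libraries 1 to 4 that difference was -0.16.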

How the data were processed

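Total RNA from liver and eWAT was extracted with TRI reagent and sequenced on a NovaSeq, per the labels' protocols. The authors deposited 1 table of raw counts per gene and library for each tissue. Reads were aligned with STAR to GRCm38.p6, per the submitters' processing notes; no source used here gives the counting tool, annotation release or strand setting. Tested on the tables, no gene had fewer than 6 of 18 libraries with a CPM above 0.5. RPKM tables were not used.

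Samples were grouped by the tissue and diet in the labels, which number libraries 1 to 6 in each group. The members and all gene lists were chosen with earlier results of these data known. Gene symbols came from GENCODE M21, which matched 14039 of 14052 liver identifiers and 16674 of 16690 in eWAT. In R 4.3.3, edgeR 4.0.16 fitted the 3 diets of a tissue together (TMM scaling, robust quasi-likelihood test, Benjamini-Hochberg over all genes of the table, adjusted p of 0.05). Differences between tissues were the interaction in 1 fit of all 36 libraries, which treated liver and eWAT libraries of the same number as independent. The fit was checked on simulated data. Class means used log2(CPM + 0.1).

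In each comparison, values are given for up to 4 members of a class with the smallest p, passing or not, and for Mki67, Top2a, Mcm2, E2f8, Ccnd1 and Cdkn1a. Library levels are given for the 3 members of a class with the smallest p in HF against LF in each tissue, and for others that a result turns on. From the longer pathway lists, genes with the smallest p were named, and for differences between tissues the 4 members with the smallest p, with Mcm2 and E2f1 added after their values were seen. Alternatives were other scalings, DESeq2 1.42.0, limma 3.58.1 (voom with quality weights), other filters on low counts, only the groups compared, a replicate block, no robust estimation, 3 removals of several libraries at once (liver LF 1 to 4, liver LF 1 and 2, and 6 of eWAT), and each library left out in turn. No pair of libraries agreed within sampling noise.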

Additional observations from a re-analysis of the deposited data

Results flagged for a closer look

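Of 78 groups of 6 libraries examined for a library far from the others, 8 had one. Chance gives about 1 in 20 for independent, normally distributed groups. These groups share libraries, so no excess over chance can be read from the count. In liver, Mcm2 was highest in LF library 4, at 4.36 CPM, and Mcm5 in HF library 4, at 9.47 CPM. The regulator mean of log2(CPM + 0.1) was lowest in liver LF library 6, at 0.28, and the mitosis mean was lowest in liver HFLF library 6, at -0.56. In eWAT, HFLF library 2 was highest for Rrm2, at 6.11 CPM, and for Mki67, at 13.6 CPM. E2f1 was highest in eWAT HF library 3, at 44.2 CPM, and Ccne1 was lowest in eWAT HF library 5, at 6.09 CPM.

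The diet effect differed between eWAT and liver by the interaction test for these members, given as eWAT minus liver on the log2 scale. For HF against LF the difference was 2.32 for Rrm2, 2.77 for Ccne1, 1.74 for Kif23 and 0.97 for Pcna. For HFLF against LF it was 1.998 for Ccne1. For HFLF against HF it was -3.69 for E2f8, -1.80 for Rrm2, -0.64 for Tyms and -1.30 for Cdt1.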

How the results depend on the processing

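Without liver LF libraries 1 to 4, 2 members were higher in HF than in LF, none higher and none lower in HFLF than in LF, and 7 differed between tissues in HF against LF and 0 in HFLF against LF; fewer libraries entered those fits. Without LF libraries 1 and 2, 1 was higher and 0 lower in HFLF than in LF, and 1 was higher in HFLF than in HF. DESeq2 put 1 member lower in liver HF than in LF, 1 higher in liver HFLF than in HF and 2 higher in eWAT HFLF than in LF. Limma voom gave 1 higher and 13 lower in liver HFLF against HF and 2 higher in eWAT HFLF against LF. The count lower in liver HFLF against LF, 1 in all (Kif23), was 0 under upper-quartile scaling, voom, a mean CPM of at least 1 and the fit of only the groups compared, the last of which also put 1 higher in HFLF than in HF. With 6 eWAT libraries removed as named in an earlier look at these data (numbers 3, 4 and 5 of LF, 1 of HF, 4 and 6 of HFLF), 7 members in place of 12 differed between tissues in HFLF against HF. The replicate block within a tissue used numbers that do not pair the diets (own number best for 0 to 2 of 6 libraries between diets). It left 0 lower in liver HFLF against LF and 3 lower in HFLF against HF. Between liver and eWAT, the own number was best for 5 of 6 libraries in LF, 2 in HF and 3 in HFLF. The labels do not say that such libraries came from 1 mouse. A block on these numbers across tissues (limma voom) left 0 for the tissue difference in HFLF against LF. Leaving out each library gave 16 to 21 higher and 0 to 2 lower in liver HF against LF, 2 higher and 0 to 2 lower in HFLF against LF, and 0 to 1 higher and 2 to 9 lower in HFLF against HF. In eWAT it gave 39 to 40 higher in HF than in LF, 0 to 3 higher in HFLF than in LF and 35 to 38 lower in HFLF than in HF. Between tissues it gave 18 to 23 members in the first of these comparisons, 1 to 3 in the second and 8 to 17 in the last. Signs turned, in log2, without liver LF libraries 1 to 4 for Ccne1 (1.18), E2f7 (0.24), E2f8 (-0.33), Ccnd1 (0.84) and Cdkn1a (0.93) in HF against LF, for Aurkb (-0.23), Ccne1 (1.25), E2f7 (0.48), Mcm2 (0.0911), Ccnd1 (0.66) and Trp53 (0.0415) in HFLF against LF, and for the tissue difference of Ccne1 (-0.16). They turned without LF libraries 1 and 2 for Ccnd1 (0.10) and Cdkn1a (0.32) in HF against LF, and with 1 library left out for liver Ccnd1 in HF against LF (-0.28 to 0.0971), and in HFLF against LF for liver Ccne2 (-0.0106 to 0.236), Top2a (-0.104 to 0.333) and Mcm2 (-0.134 to 0.0547) and for eWAT Cdkn1a (-0.182 to 0.135), none of them called in those comparisons. Without LF library 5, E2f8 rose in liver HF (0.98, adjusted p = 0.0386). Upper-quartile scaling moved the median tissue difference of all genes in HF against LF to -0.117. The cause of these shifts was not tested.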
